A study of Mus musculus with 4 samples.

Results

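Inhibitory receptors are surface proteins that T cells and natural killer (NK) cells raise after activation and that dampen further signaling. The genes described here were *Pdcd1*, *Havcr2*, *Lag3*, *Tigit*, *Ctla4* and *Cd160*, which encode the receptors PD-1, TIM-3, LAG-3, TIGIT, CTLA-4 and CD160, with *Entpd1*, which encodes the ectoenzyme CD39, and *Tox*, which encodes a nuclear factor of exhausted T cells. They were taken as listed symbols, chosen with earlier results of these data known. They make up 8 of the 32285 genes of the CD45 matrix and 8 of the 31053 genes of the T cell matrix. The cells were immune cells from mouse B16-F10 melanomas on day 8. The tumor was a single clone that made the fluorescent protein ZsGreen (ZsG) under doxycycline, grown under the skin of wild-type C57BL/6 mice, so that ZsG in an immune cell marked tumor material. A first sort took CD45-positive cells and a second sort took cells positive for CD45 and TCRb, and each was split by ZsG into 2 libraries, negative and positive. Every group was therefore 1 library without a replicate, and the sources used here do not give how many mice went into one.

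As background, antigen contact switches these genes on and lasting contact keeps them on. PD-1 and CTLA-4 blunt CD28 costimulation, TIM-3, LAG-3 and CD39 mark dysfunctional CD8 T cells in tumors, and TOX helps to hold that state. Regulatory T cells (Tregs) carry CTLA-4 as part of their normal program and also CD39, which breaks down extracellular ATP. CD160 is a receptor of NK cells, other innate lymphoid cells (ILCs) and some CD8 T cells, and TIGIT competes with an activating receptor for its ligands.

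On GRCm38 (mm10) with the GENCODE vM21 annotation, all 8 were protein-coding genes. *Pdcd1* (ENSMUSG00000026285) lies at chr1:94038305-94052553 on the minus strand and *Ctla4* (ENSMUSG00000026011) at chr1:60887000-60915832 on the plus strand. *Havcr2* (ENSMUSG00000020399) lies at chr11:46454935-46481255 on the plus strand and *Lag3* (ENSMUSG00000030124) at chr6:124904361-124911705 on the minus strand. *Tigit* (ENSMUSG00000071552) lies at chr16:43648867-43664146, *Cd160* (ENSMUSG00000038304) at chr3:96798763-96829351 and *Tox* (ENSMUSG00000041272) at chr4:6686353-6991557, all on the minus strand. *Entpd1* (ENSMUSG00000048120) lies at chr19:40612366-40741602 on the plus strand. RefSeq promoter windows on GRCm38.p6 were matched for 6 of the 8 genes, without *Lag3* and *Tox*. The 250 bases before the RefSeq start, which for *Ctla4* lies inside the GENCODE span, are shown 5′ to 3′ for *Pdcd1* (chr1:94052554-94052803, minus strand), *Havcr2* (chr11:46454681-46454930, plus strand) and *Ctla4* (chr1:60908775-60909024, plus strand). These genes were picked by co-detection in ZsG-positive CD8 T cells of the T cell sort. There the share of cells with *Pdcd1* and each of the others was above the product of the single shares. Independence was not tested. T cell receptor signaling acts through NFAT, whose core motif is GGAAA, and AP-1, whose motif is TGANTCA. Capitals mark matches to either motif on either strand.
Pdcd1: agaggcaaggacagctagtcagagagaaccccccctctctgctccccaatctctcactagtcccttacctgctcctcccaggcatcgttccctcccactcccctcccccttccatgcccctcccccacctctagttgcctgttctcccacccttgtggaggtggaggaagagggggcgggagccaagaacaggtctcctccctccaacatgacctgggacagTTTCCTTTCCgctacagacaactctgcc
Havcr2: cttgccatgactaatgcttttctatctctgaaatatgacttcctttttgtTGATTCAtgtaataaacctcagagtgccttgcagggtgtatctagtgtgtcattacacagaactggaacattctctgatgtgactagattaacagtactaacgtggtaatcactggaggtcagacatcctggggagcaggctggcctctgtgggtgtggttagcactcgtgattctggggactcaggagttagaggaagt
Ctla4: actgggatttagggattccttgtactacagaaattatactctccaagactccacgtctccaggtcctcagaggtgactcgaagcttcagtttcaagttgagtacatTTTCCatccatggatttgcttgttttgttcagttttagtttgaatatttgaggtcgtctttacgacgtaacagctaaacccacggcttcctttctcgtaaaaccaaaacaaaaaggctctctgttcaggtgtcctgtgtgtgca
GGAAA matched 2 times in the *Pdcd1* window, where the matches abut, 0 times in the *Havcr2* window and 1 time in the *Ctla4* window. TGANTCA matched 1 time in the *Havcr2* window and 0 times in the others. Of all 32851 RefSeq windows of this length, 55.6% held GGAAA and 6.75% held TGANTCA.

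The files count RNA molecules, each told apart by its unique molecular identifier (UMI). The CD45 sort had 5437 ZsG-negative and 5168 ZsG-positive barcodes with 47537541 and 56510578 UMIs, and the T cell sort had 1136 and 2396 barcodes with 10030971 and 22100220 UMIs. The libraries shared 6 barcodes in the CD45 sort and 1 in the T cell sort. For the T cell sort the labels conflict on which library is which. The library with 2396 barcodes was taken as ZsG-positive, and every ratio given for this sort changes sign if that is wrong. Among T cells, the Treg share, the cycling share and the summed level of macrophage genes were higher in that library, as they were in the ZsG-positive library of the CD45 sort. Plasmacytoid dendritic cells, gated by *Siglech*, ran the other way between the sorts. They numbered 179 ZsG-negative and 25 ZsG-positive cells in the CD45 sort, and 117 and 587 in the T cell sort. Melanocyte genes summed to 3.40 and 9.83 CPM in the T cells of the libraries taken as ZsG-negative and ZsG-positive. T cells had at least 3 UMIs of *Cd3d*, *Cd3e* and *Cd3g* in sum, and NK/ILC cells had fewer of these and at least 2 UMIs of *Ncr1* and *Klrb1c* in sum. Cells with at least 0.2% of UMIs from macrophage and monocyte genes were left out. This gave 644 ZsG-negative and 730 ZsG-positive T cells in the T cell sort, 1632 and 193 T cells in the CD45 sort, and 2119 and 92 NK/ILC cells. All T cells of the T cell sort had a UMI of a T cell receptor chain gene (*Trac*, *Trbc1* or *Trbc2*). Most NK/ILC cells had one too (128 ZsG-negative and 9 ZsG-positive cells had none), so this does not tell the classes apart. By the study's account the ZsG-positive gate of the CD45 sort was set for bright cells, so that its ZsG-negative library also held lymphocytes with weaker ZsG.

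A level is given as CPM, the UMIs of a gene per 1000000 UMIs of the same cells, and is compared within a gene only. Ranges in parentheses are 95% intervals for counting error alone, exact Poisson for levels, Clopper-Pearson for shares and conditional on the total for ratios between libraries. They say nothing of the spread between mice, and no p-value is given because cells of 1 library are not replicates. Shares of cells are given at a fixed depth of 2000 UMIs per cell, as the expectation of drawing that many from each cell, with shallower cells left out (2 ZsG-negative and 12 ZsG-positive T cells of the T cell sort).

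CD8 T cells with *Gzmb*, which encodes granzyme B, had the highest *Pdcd1* and *Havcr2* levels of the 6 T cell classes in the T cell sort. They were 266 ZsG-negative and 301 ZsG-positive cells. *Pdcd1* was at 210.0 (192 to 229.6) and 253 CPM (236 to 271) in the ZsG-negative and ZsG-positive library, against 28.6 (17.2 to 44.7) and 92.2 CPM (70.6 to 118) in naive-like CD8 cells, which had at least 2 UMIs in sum of a set of naive T cell genes that includes *Ccr7* and *Lef1*, and none of *Gzmb*. CD8 cells in neither class had *Pdcd1* at 166 (127 to 213) and 217 CPM (175 to 266), and these intervals overlapped those of the *Gzmb*-positive cells. *Havcr2* was at 71.2 (60.7 to 83.0) and 101 CPM (90.0 to 112) in *Gzmb*-positive CD8 cells and rested on 0 and 1 UMIs in the 98 ZsG-negative and 76 ZsG-positive naive-like cells. With 3 counts as the limit that a count of 0 allows, the 0 of 98 cells allows a share of cells with a UMI of up to 3.06%. In Tregs, defined by *Foxp3*, *Pdcd1* was at 110.2 (74.9 to 156) and 112 CPM (93.2 to 134) and *Havcr2* at 14.2 (3.87 to 36.4) and 44.5 CPM (32.8 to 59.1), below *Gzmb*-positive CD8 cells of the same library without overlap. The low *Pdcd1* level of naive-like cells was not seen in the CD45 sort. There it was at 142 and 130 CPM in naive-like CD8 cells, from 187 and 13 UMIs. Tregs of that sort had 84.0 and 94.8 CPM, from 67 and 26 UMIs.

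*Ctla4* had another order. In the T cell sort Tregs were above every other T cell class, at 1454 (1316 to 1602) and 1424 CPM (1353 to 1497). In the CD45 sort Tregs were at 919 (854 to 988) and 889 CPM (781 to 1008), and the interval of the ZsG-positive Tregs overlapped that of the 9 ZsG-positive conventional CD4 cells (812 CPM, 646 to 1006). At 2000 UMIs per cell, 90.3% (73.9 to 98.0) and 87.2% (79.3 to 92.9) of Tregs in the T cell sort had a *Ctla4* UMI. Conventional CD4 T cells were at 368 (307 to 439) and 407 CPM (315 to 516) and *Gzmb*-positive CD8 cells at 187 (169.6 to 205) and 165 CPM (151 to 179), and in both classes the intervals of the 2 libraries overlapped. *Cd160* was high in CD8 T cells and near 0 in Tregs. It was at 108 (94.8 to 122) and 173 CPM (159 to 188) in *Gzmb*-positive CD8 cells and rested on 0 and 1 UMIs in the 30 and 107 Tregs, where 0 of 30 cells allows, by the same limit, a share of up to 10%.

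**Figure D1:**
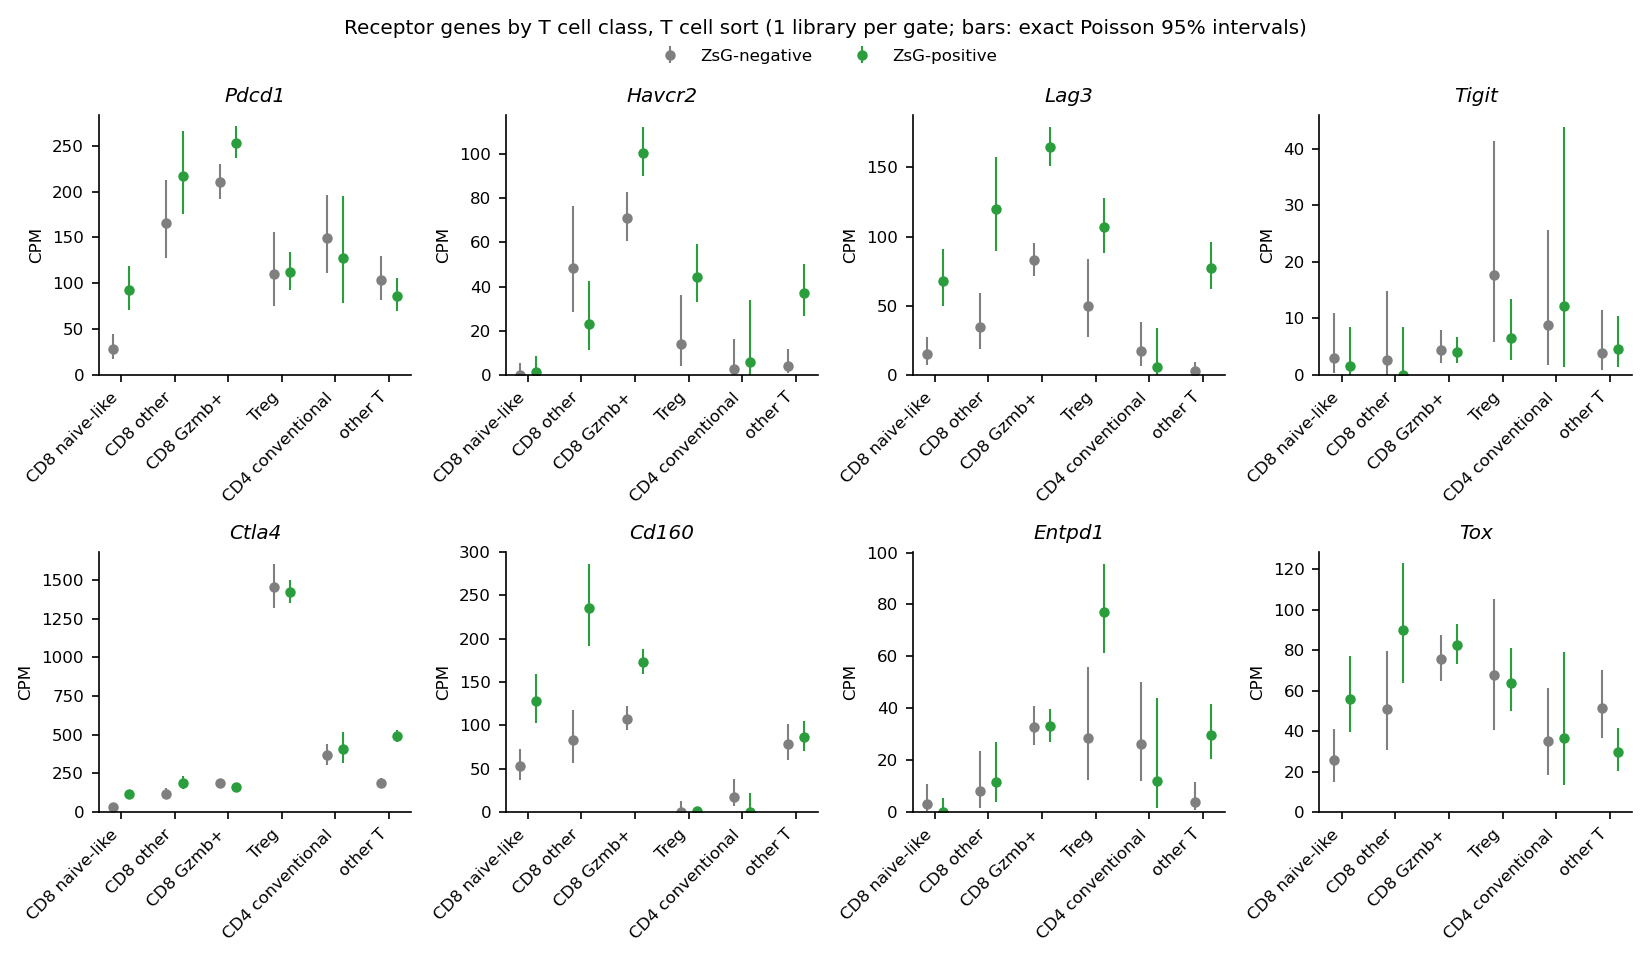
Levels of the 8 genes in CPM in 6 T cell classes of the T cell sort, 1 library per ZsG gate (gray, ZsG-negative; green, ZsG-positive), with exact Poisson 95% intervals and a separate axis for each gene. *Ctla4* stands highest in Tregs (1454 and 1424 CPM), *Havcr2* in *Gzmb*-positive CD8 cells (71.2 and 101 CPM), and *Cd160* is at 0 and 0.928 CPM in Tregs.

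*Entpd1* was at 32.7 (25.8 to 41.0) and 33.0 CPM (27.1 to 39.9) in *Gzmb*-positive CD8 cells and at 28.4 (12.3 to 56.0) and 77.0 CPM (61.4 to 95.5) in Tregs. *Tox* ran from 25.6 to 75.5 CPM over the 6 ZsG-negative classes and from 29.7 to 90.1 CPM over the 6 ZsG-positive classes. *Lag3* had its highest T cell level in ZsG-positive *Gzmb*-positive CD8 cells, at 165 CPM (151 to 179), and lay at 107 CPM (88.1 to 128) in ZsG-positive Tregs. *Tigit* was scarce, with 24 and 28 UMIs in all ZsG-negative and ZsG-positive T cells of the T cell sort, a level of 5.09 (3.26 to 7.58) and 4.17 CPM (2.77 to 6.03), and no order among classes could be read at this depth.

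Cell classes without CD3 transcripts show how much of these genes was counted outside T and NK/ILC cells. The ZsG-positive library of the CD45 sort held 193 T cells among 4123 kept cells, and the ZsG-negative library held 1632 among 4699. Levels in ZsG-positive macrophages are therefore no measure of free RNA in the ZsG-negative library. In the 1769 ZsG-positive macrophages of the CD45 sort (median 12457 UMIs), *Pdcd1*, *Lag3*, *Tigit*, *Ctla4*, *Cd160* and *Tox* lay between 0.0390 and 1.48 CPM. *Havcr2* was at 26.9 CPM (25.0 to 29.0) and *Entpd1* at 86.5 CPM (82.9 to 90.2) in the same macrophages. *Lag3* was also a gene of plasmacytoid dendritic cells (pDCs), the *Siglech*-positive producers of type I interferon. At 2000 UMIs, a *Lag3* UMI was found in 29.5% (22.9 to 36.8) of the 179 ZsG-negative pDCs of the CD45 sort, where its level was 186 CPM (166 to 209). The T cell sort held 117 ZsG-negative and 587 ZsG-positive pDCs, with *Lag3* at 163 (139.9 to 189) and 201 CPM (188 to 213).

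The second sort asked how T cells with tumor material differed from those without. Over all T cells of the T cell sort, *Lag3* showed the largest difference of the 8 genes. It was at 49.9 (43.7 to 56.7) and 125 CPM (116 to 133) in ZsG-negative and ZsG-positive cells, a log2 ratio, ZsG-positive over ZsG-negative, of 1.32 (1.11 to 1.54). *Ctla4* followed with 249 and 423 CPM (0.77, 0.67 to 0.87). *Entpd1* was at 21.2 and 34.4 CPM (0.70, 0.35 to 1.05), *Havcr2* at 40.1 and 64.0 CPM (0.67, 0.42 to 0.93) and *Cd160* at 80.5 and 127 CPM (0.65, 0.48 to 0.83). *Pdcd1* differed less, at 153 and 182 CPM (0.24, 0.11 to 0.38), and the interval for *Tox* held 0, at 59.2 and 67.6 CPM (0.19, -0.03 to 0.41). The log2 ratio of *Tigit* was -0.29 (-1.13 to 0.56), within its counting error.

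Of the 7 genes that reached 100 UMIs when both libraries were added, 5 were at least 1.5-fold higher in the ZsG-positive library, against 8.19% of all 7239 genes with that many UMIs, and 0 were 1.5-fold lower, against 5%. The median log2 ratio was 0.67 for the 7 genes and 0.05 for all genes. The 8 genes were chosen with earlier results of these data known. Their counts and medians against all genes, here and below, are therefore a description only. The share of T cells with a UMI at 2000 UMIs per cell was 4.78% (3.26 to 6.73) and 14.96% (12.4 to 17.8) for *Lag3*, 3.83% (2.48 to 5.62) and 7.88% (6.01 to 10.1) for *Havcr2*, and 16.3% (13.5 to 19.4) and 22.2% (19.2 to 25.4) for *Pdcd1*. At full depth (medians 5800 and 6268.5 UMIs) *Lag3* was found in 12.9% and 35.6% of T cells. In macrophages of the same sort (medians 18425.5 and 13946 UMIs) the *Lag3* share at 2000 UMIs was 0% and 0.127%.

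The libraries held different mixtures of T cells. Tregs were 4.66% of ZsG-negative and 14.7% of ZsG-positive T cells, and naive-like CD8 cells were 15.2% and 10.4%. When the 6 classes were weighted equally, the log2 ratio of *Ctla4* was 0.25 in place of 0.77, and within Tregs it was -0.03 (-0.19 to 0.13). The log2 ratio of *Cd160* under equal weights was 0.88. *Lag3* was higher in the ZsG-positive cells of 5 of the 6 classes. The exception was the conventional CD4 class, with 6 and 1 UMIs in its 60 ZsG-negative and 40 ZsG-positive cells.

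**Figure D2:**
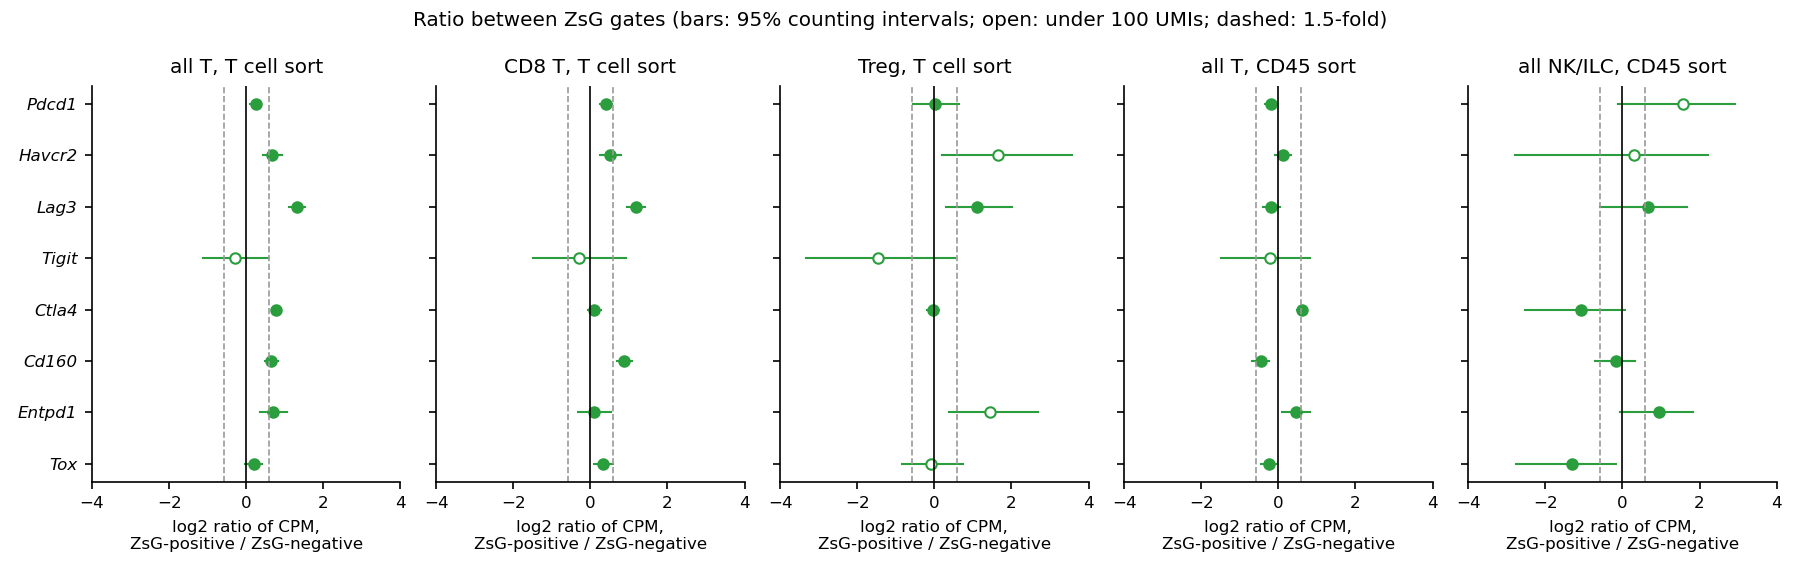
Log2 ratio of CPM, ZsG-positive over ZsG-negative, for each gene in 5 comparisons (points; lines are 95% counting intervals, shown from -4 to 4; open points have under 100 UMIs over both libraries; dashed lines mark 1.5-fold). *Lag3* lies at 1.32, 1.18 and 1.10 in all T cells, CD8 T cells and Tregs of the T cell sort and at -0.18 in T cells of the CD45 sort. *Tigit* has no point in NK/ILC cells, where 0 ZsG-positive UMIs were counted.

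Within CD8 T cells of the T cell sort (423 ZsG-negative and 443 ZsG-positive cells), *Lag3* was at 64.0 (55.7 to 73.2) and 146 CPM (134 to 157), a log2 ratio of 1.18 (0.96 to 1.42), and *Cd160* at 94.1 (83.9 to 105) and 173 CPM (160.4 to 185), a log2 ratio of 0.88 (0.68 to 1.07). These 2 of 7 genes passed 1.5-fold, against 7.24% of 6080 genes, and 0 were 1.5-fold lower, against 6.04%. *Havcr2* (0.52, 0.25 to 0.79), *Pdcd1* (0.42, 0.26 to 0.57) and *Tox* (0.34, 0.08 to 0.59) were higher by less. *Ctla4* (0.11, -0.06 to 0.27) and *Entpd1* (0.11, -0.32 to 0.54) differed within their counting error. The median was 0.42 over the 7 genes and 0.04 over all genes.

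Naive-like CD8 cells had *Lag3* at 15.1 (7.22 to 27.7) and 68.1 CPM (49.6 to 91.1), from 10 and 45 UMIs (log2 ratio 2.18, 1.17 to 3.33). *Pdcd1* (1.69, 0.93 to 2.51), *Ctla4* (1.73, 1.04 to 2.47), *Cd160* (1.29, 0.70 to 1.90) and *Tox* (1.13, 0.26 to 2.05) were also higher in their ZsG-positive cells. In *Gzmb*-positive CD8 cells the log2 ratio was 0.99 (0.75 to 1.23) for *Lag3*, 0.68 (0.46 to 0.90) for *Cd160*, 0.27 (0.11 to 0.44) for *Pdcd1* and -0.18 (-0.37 to 0.01) for *Ctla4*. The intervals of the naive-like and the *Gzmb*-positive class did not overlap for *Pdcd1* and *Ctla4* and overlapped for *Lag3* and *Cd160*. CD8 cells in neither class (59 and 66 cells) had *Lag3* at 34.8 and 120.1 CPM (1.79, 0.89 to 2.79), *Cd160* at 83.1 and 236 CPM (1.504, 0.91 to 2.13) and *Havcr2* at 48.2 and 23.1 CPM, from 18 and 10 UMIs (-1.06, -2.34 to 0.13). Cycling cells, defined below, were 0% and 7.89% of the naive-like class, and their part in its ratios was not tested. Naive-like cells of the CD45 sort (164 and 14 cells) had *Lag3* lower, from 77 and 1 UMIs (-2.55, -7.87 to -0.03). There the intervals of *Pdcd1*, *Ctla4*, *Cd160* and *Tox* held 0.

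Cycling cells, with at least 3 UMIs of *Mki67*, *Top2a*, *Cdk1*, *Ccnb2* and *Birc5* in sum, were 8.65% of ZsG-negative and 18.6% of ZsG-positive *Gzmb*-positive CD8 cells in the T cell sort. They held more UMIs than the other cells (medians 22270 and 18979 against 6384 and 6803). *Pdcd1* in the ZsG-negative library was at 387 (334 to 445) CPM in the 23 cycling and 160.4 (142 to 180.1) CPM in the 243 other cells. In the ZsG-positive library it was at 244 (216 to 273) CPM in 56 cycling and 259 (237 to 282) CPM in 245 other cells, with overlapping intervals. *Cd160* was lower in the cycling cells of the ZsG-positive library, at 114 (95.5 to 135) CPM against 207 (188 to 228) CPM, and in the ZsG-negative library it was at 122 (93.0 to 156) CPM against 104 (89.6 to 120.0) CPM, with overlapping intervals. *Lag3* was at 138 and 67.6 CPM in cycling and other ZsG-negative cells and at 165 and 164 CPM in ZsG-positive cells. Leaving cycling cells out of all T cells took the log2 ratio from 1.32 to 1.68 for *Lag3* and from 0.24 to 0.57 for *Pdcd1*.

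Tregs of the T cell sort had *Lag3* at 49.8 (27.2 to 83.5) and 107 CPM (88.1 to 128), a log2 ratio of 1.10 (0.30 to 2.02). *Entpd1* rested on 8 and 83 UMIs (1.44, 0.39 to 2.70) and *Havcr2* on 4 and 48 UMIs (1.65, 0.20 to 3.58), while the ratio of *Pdcd1* was 0.03 (-0.55 to 0.65). The *Pdcd1* value moved with the cells used: without the 7 ZsG-negative and 37 ZsG-positive cycling Tregs it was 2.86, and without the 5% of cells with most UMIs 0.93. Of the 3 genes with 100 UMIs, 1, *Lag3*, passed 1.5-fold, against 6.27% of 1963 genes, and 0 were 1.5-fold lower, against 4.99%. *Lag3* reached 100 UMIs only through its 115 ZsG-positive UMIs, beside 14 ZsG-negative, so nothing is read from this count. The median was 0.03 over the 3 genes and 0.0013 over all genes. With a minimum of 20 UMIs it was 0.56 over 6 genes, 3 of them higher against 16.1% of all genes. These 3, *Havcr2*, *Entpd1* and *Lag3*, had 4, 8 and 14 ZsG-negative UMIs and passed 20 only with their ZsG-positive UMIs. Nothing is read from this count or median either.

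T cells in no named class (131 and 140 cells), because *Cd4*, *Cd8a*, *Cd8b1* and *Foxp3* were not seen or were seen in conflict, had ratios in both directions. *Lag3* rested on 2 and 86 UMIs (log2 ratio 4.88, 2.98 to 7.95), *Havcr2* on 3 and 41 UMIs (3.23, 1.58 to 5.56) and *Entpd1* on 3 and 33 UMIs (2.91, 1.24 to 5.26). *Ctla4* was also higher (1.39, 1.12 to 1.67), *Tox* was lower, from 39 and 33 UMIs (-0.79, -1.501 to -0.08), and *Pdcd1* (-0.26, -0.71 to 0.18) differed within its counting error. These cells also differed in makeup, with *Foxp3* at 19.7 and 81.1 CPM, CD8 genes at 101 and 168 CPM and cycling cells at 3.05% and 18.6%. The part of this in the ratios was not tested.

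In the T cell sort, macrophage and pDC transcripts were higher in ZsG-positive T cells. The 8 macrophage and monocyte genes summed to 32.1 and 92.8 CPM in ZsG-negative and ZsG-positive T cells of the T cell sort, to 38.8 and 84.1 CPM in its CD8 T cells and to 7.11 and 78.9 CPM in its Tregs. *Siglech* was at 0.212 and 29.0 CPM in all T cells of this sort. In T cells of the CD45 sort it went the other way, at 10.4 and 0 CPM. *Havcr2* and *Lag3* were lower in ZsG-positive macrophages than in ZsG-positive T cells, whereas *Entpd1* was higher, and the part of macrophage RNA in the *Entpd1* ratio was not tested. With all cells that had a *Siglech* UMI left out, a comparison added after the pDC values were seen, the log2 ratio of *Lag3* was 1.30 in all T cells, 1.18 in CD8 T cells and 1.12 in Tregs.

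At 2000 UMIs per cell, at least 3 of the 8 genes were detected in 4.87% (3.34 to 6.83) of ZsG-negative and 12.1% (9.77 to 14.7) of ZsG-positive T cells, and none in 51.1% (47.2 to 55.0) and 35.0% (31.5 to 38.6). In *Gzmb*-positive CD8 cells, at least 3 were found in 9.22% (6.02 to 13.4) and 17.5% (13.3 to 22.3). Tregs seldom had none of the genes (5.56% and 8.42%), and at least 3 were found in 3.50% (0.103 to 17.5) and 14.5% (8.39 to 22.6), with overlapping intervals. *Pdcd1*, *Havcr2* and *Lag3* together were detected in 0.902% (0.142 to 2.93) and 2.67% (1.16 to 5.20) of *Gzmb*-positive CD8 cells.

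**Figure D3:**
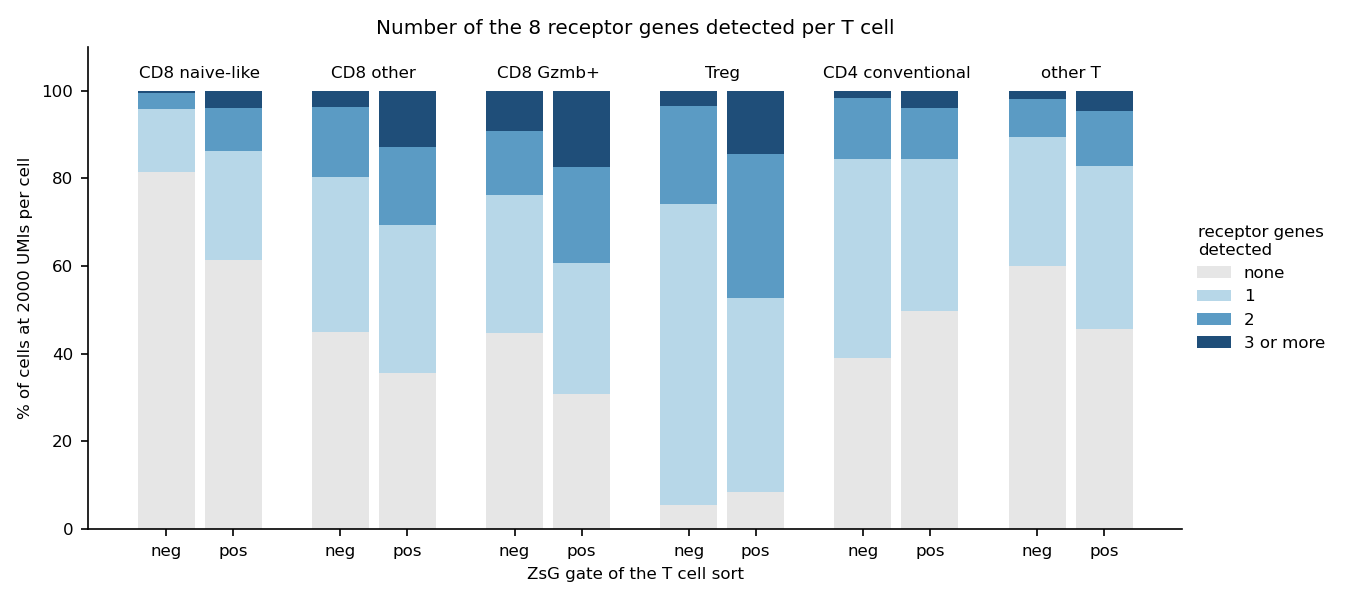
Share of T cells, in percent, with none, 1, 2 or at least 3 of the 8 genes detected at 2000 UMIs per cell, by class and ZsG gate of the T cell sort (1 library per gate, no error bars drawn). The share with none is 81.4% of ZsG-negative and 61.4% of ZsG-positive naive-like CD8 cells and 5.56% and 8.42% of Tregs.

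Pairs of genes were compared with the product of their shares, the value if both were spread over cells independently. The interval of such a ratio is the Clopper-Pearson interval of the share with both genes, divided by that product. The product is held fixed, so the error of the single-gene shares is left out and the intervals do not test independence. In ZsG-positive CD8 T cells of the T cell sort, *Havcr2* and *Lag3* were found together in 3.79% (2.21 to 6.03) of cells, and the ratio to the product was 2.05 (1.20 to 3.27). The ratio was 1.67 (1.19 to 2.28) for *Pdcd1* with *Lag3*, 1.72 (1.06 to 2.62) for *Pdcd1* with *Havcr2* and 1.504 (1.10 to 2.00) for *Pdcd1* with *Ctla4*. In ZsG-negative CD8 T cells of the same sort it was 2.71 (1.46 to 4.55) for *Pdcd1* with *Lag3* and 2.09 (1.37 to 3.04) for *Pdcd1* with *Ctla4*. The ZsG-negative library of the CD45 sort (908 CD8 T cells) gave 1.84 (1.24 to 2.62) for *Havcr2* with *Lag3*, 1.53 (1.19 to 1.94) for *Pdcd1* with *Lag3* and 1.60 (1.22 to 2.06) for *Pdcd1* with *Havcr2*. CD8 T cells include naive-like cells with few receptors. Within ZsG-positive *Gzmb*-positive CD8 cells alone, the ratio was 1.79 (1.04 to 2.85) for *Havcr2* with *Lag3* and 1.45 (0.99 to 2.02) for *Pdcd1* with *Lag3*.

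*Cd160* had ratios nearer 1. In CD8 T cells they were 1.17 (0.78 to 1.67) with *Pdcd1* and 0.85 (0.51 to 1.33) with *Ctla4* in the ZsG-positive library of the T cell sort, and 1.08 (0.81 to 1.39) and 0.93 (0.63 to 1.30) in the ZsG-negative library of the CD45 sort. Each of these intervals held 1. Over all ZsG-positive T cells, Tregs included, *Ctla4* with *Cd160* was at 0.51 (0.31 to 0.80) and *Ctla4* with *Entpd1* at 1.80 (1.20 to 2.57). Within ZsG-positive Tregs, *Ctla4* with *Entpd1* was at 1.08 (0.62 to 1.70).

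**Figure D4:**
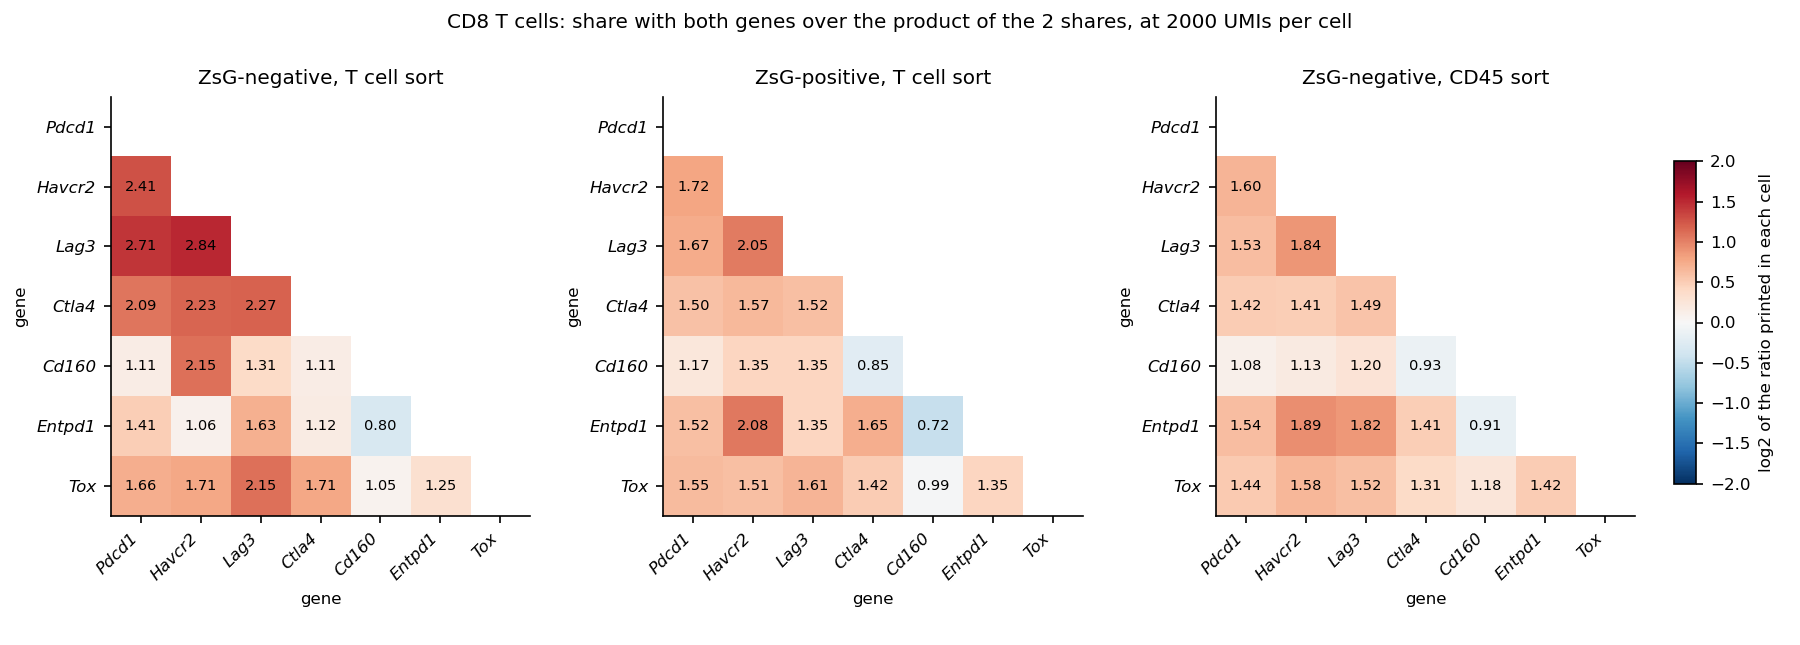
Co-detection of the genes in CD8 T cells at 2000 UMIs per cell, as the share of cells with both genes over the product of their shares (the number in each field, with its log2 as color; *Tigit* is left out), for both libraries of the T cell sort and the ZsG-negative library of the CD45 sort. *Havcr2* with *Lag3* reaches 2.05 in ZsG-positive cells and 1.84 in the CD45 sort, while *Ctla4* with *Cd160* lies at 0.85 and 0.93.

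T cells of the CD45 sort, with its brighter ZsG-positive gate, gave other values. *Ctla4* was at 188 (182 to 194) and 288 CPM (267 to 309), a log2 ratio of 0.61 (0.49 to 0.73), and *Entpd1* at 22.5 and 31.0 CPM (0.46, 0.10 to 0.81). *Lag3* (-0.18, -0.41 to 0.04) and *Havcr2* (0.13, -0.09 to 0.34) differed within their counting error. *Pdcd1* (-0.20, -0.34 to -0.07), *Tox* (-0.25, -0.45 to -0.05) and *Cd160* (-0.45, -0.68 to -0.23) were lower in the ZsG-positive library. *Ctla4*, 1 of 7 genes, passed 1.5-fold upward, against 5.42% of 8969 genes, and 0 passed it downward, against 5.81%. The median was -0.18 for the 7 genes and 0.05 for all genes. In *Gzmb*-positive CD8 cells of this sort (647 and 92 cells), *Pdcd1* was at 305 (296 to 315) and 257 CPM (233 to 283), *Lag3* at 108 (103 to 114) and 94.8 CPM (80.5 to 111) and *Havcr2* at 113 (108 to 119) and 121 CPM (104 to 139).

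These ratios moved with the choice of cells. The macrophage and monocyte genes summed to 37.3 and 401 CPM in ZsG-negative and ZsG-positive T cells of the CD45 sort, and 21 and 200 cells were past the 0.2% limit. Without the limit, the log2 ratio was -0.96 for *Lag3*, -0.92 for *Pdcd1* and 0.028 for *Ctla4*. Cycling cells were 29.7% of ZsG-negative and 48.7% of ZsG-positive T cells, and without them the ratios of *Pdcd1* and *Lag3* were 0.24 and 0.31. Tregs were 2.94% and 9.33% of T cells, and within Tregs the ratio of *Ctla4* was -0.05 (-0.26 to 0.16). Within CD8 T cells the *Ctla4* ratio was -0.07 (-0.26 to 0.11). It was 1.31 (0.91 to 1.71) in conventional CD4 cells (49 and 9 cells). In T cells in no named class (627 and 43 cells) it was 1.33 (1.05 to 1.61). The part of each class in the ratio over all T cells was not tested.

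NK/ILC cells had few of these transcripts. In the ZsG-negative library of the CD45 sort, *Cd160* led, at 67.0 CPM (61.8 to 72.6) in the 1724 cells with Ly49 (*Klra*) receptor transcripts, 138 CPM (115 to 163) in the 167 cells without and 95.4 CPM (84.7 to 107) in the 228 cells rich in *Gzmc*, and these 3 intervals did not overlap. *Ctla4* was at 16.5 CPM (14.0 to 19.4) in Ly49-positive cells and higher in the Ly49-negative (53.3, 39.6 to 70.3) and the *Gzmc*-rich cells (48.0, 40.6 to 56.4), which overlapped. *Lag3* was at 21.6 CPM (16.7 to 27.4) in *Gzmc*-rich, 14.9 CPM (8.16 to 25.1) in Ly49-negative and 6.62 CPM (5.05 to 8.52) in Ly49-positive cells. *Havcr2* was found mainly in *Gzmc*-rich cells, at 12.7 CPM (9.06 to 17.4), with 6 UMIs in Ly49-positive and 0 in Ly49-negative cells. *Tox* had the reverse order, at 35.9 CPM (32.2 to 40.1) in Ly49-positive and 18.9 CPM (14.4 to 24.5) in *Gzmc*-rich cells.

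*Pdcd1* was at 3.52 CPM (2.58 to 4.70) in all ZsG-negative NK/ILC cells (median 4707 UMIs) and at 7.59 CPM (3.92 to 13.3) in pDCs of the same library (median 8458 UMIs). At 2000 UMIs a *Pdcd1* UMI was found in 0.826% (0.486 to 1.31) of these NK/ILC cells and 1.55% (0.292 to 4.63) of the pDCs, with overlapping intervals. The *Pdcd1* level in ZsG-positive macrophages of this sort was below that in NK/ILC cells. These macrophages come from the other library, which held fewer T cells. Whether the NK/ILC value was background was not tested. None of the 8 genes was detected in 75.6% (73.7 to 77.4) of ZsG-negative NK/ILC cells, and at least 3 were found in 0.193% (0.0535 to 0.489).

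**Figure D5:**
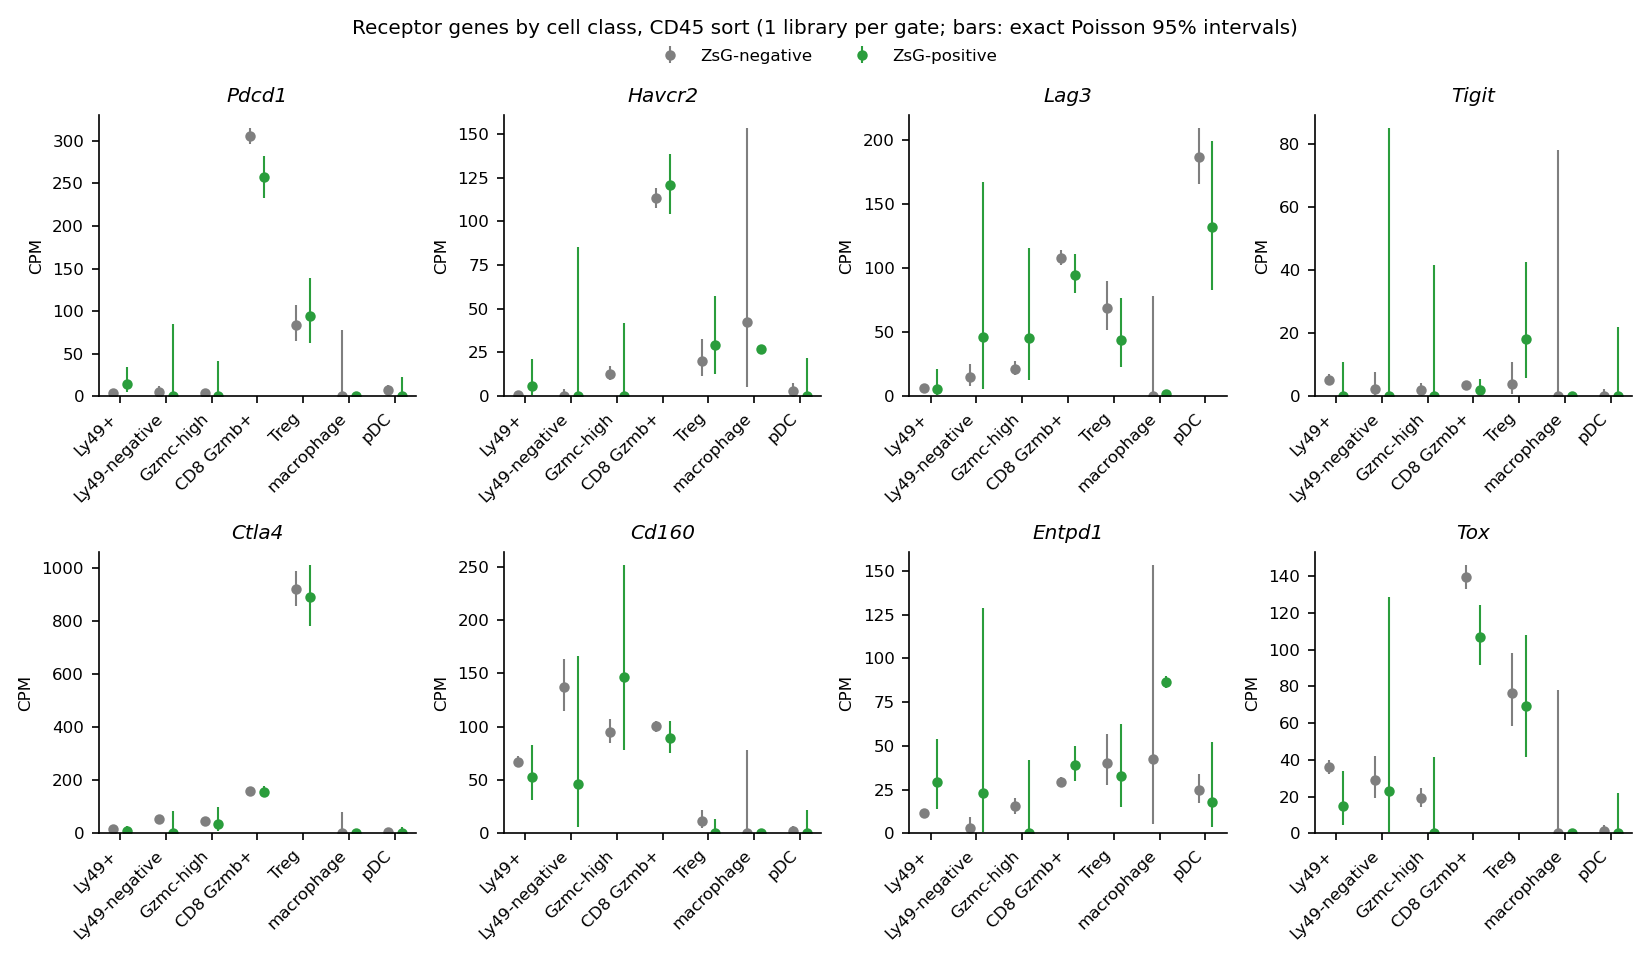
Levels of the 8 genes in CPM in 3 NK/ILC classes, *Gzmb*-positive CD8 T cells, Tregs, macrophages and pDCs of the CD45 sort (gray, ZsG-negative; green, ZsG-positive; exact Poisson 95% intervals; separate axes). *Lag3* is highest in pDCs (186 and 132 CPM) and *Cd160* reaches 138 in ZsG-negative Ly49-negative NK/ILC cells, while the wide intervals belong to groups with few cells, such as the 11 ZsG-positive Ly49-negative and 5 *Gzmc*-rich NK/ILC cells and the 6 ZsG-negative macrophages.

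Only 92 NK/ILC cells were ZsG-positive, and most ratios rested on few UMIs. *Tox* was at 31.5 and 12.7 CPM, from 411 and 6 UMIs (log2 ratio -1.31, -2.77 to -0.18). *Ctla4* rested on 347 and 6 UMIs (-1.07, -2.53 to 0.07), *Entpd1* on 156 and 11 UMIs (0.96, -0.07 to 1.84) and *Lag3* on 140 and 8 UMIs (0.66, -0.58 to 1.67). *Cd160* was at 78.7 and 69.6 CPM (-0.18, -0.72 to 0.32). Of the 5 genes with 100 UMIs, 2 were at least 1.5-fold higher, against 8.51% of 7841 genes, and 2 were 1.5-fold lower, against 12.9%. The median was -0.18 over the 5 genes and -0.04 over all genes. With a minimum of 20 UMIs it was 0.06 over 8 genes, 3 higher and 3 lower, against 13.1% and 18.4% of all genes. *Tigit*, among these 3 lower genes, had 55 ZsG-negative and 0 ZsG-positive UMIs. All 5 genes passed 100 UMIs with their ZsG-negative UMIs alone. NK/ILC cells held 13067984 UMIs in the ZsG-negative library and 474041 in the ZsG-positive library. Nothing is read from these counts or medians. Macrophage and monocyte genes summed to 48.8 and 586 CPM in ZsG-negative and ZsG-positive NK/ILC cells, and their part in the *Entpd1* ratio was not tested.

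Related genes were read from lists by the same 1.5-fold rule, for all T cells of the T cell sort unless stated, where 8.19% of all genes were higher and 5% lower, with a median of 0.05. The lists too were chosen with earlier results of these data known, so their counts are a description only. Of 9 other inhibitory receptor genes with 100 UMIs, 2 were higher and 1 was lower, with a median of 0.02. *Lair1*, a collagen receptor, was at 5.52 and 17.7 CPM (1.68, 1.06 to 2.35) and *Klrg1*, a cadherin receptor, at 22.1 and 38.4 CPM (0.80, 0.47 to 1.14), while *Cd101* was at 14.4 and 6.999 CPM (-1.04, -1.61 to -0.49). *Lair1* reached 100 UMIs only through the ZsG-positive library. Its interval held 0 in CD8 T cells (0.46, -0.34 to 1.31) and in T cells of the CD45 sort (0.10, -0.72 to 0.83). Of 8 costimulatory receptor genes, 2 were higher and 0 lower, with a median of 0.17. *Tnfrsf4*, which encodes OX40, was at 199 and 552 CPM (1.47, 1.37 to 1.58) and *Tnfrsf9*, which encodes 4-1BB, at 196 and 412 CPM (1.07, 0.96 to 1.18). Within CD8 T cells the ratios of *Tnfrsf4* and *Tnfrsf9* were 0.60 (0.40 to 0.80) and 0.82 (0.68 to 0.96). In T cells of the CD45 sort they were 0.83 (0.74 to 0.92) and 0.26 (0.15 to 0.36). *Cd226*, the activating partner of TIGIT, was at 79.8 and 70.1 CPM (-0.19, -0.39 to 0.01), within its counting error. Of 6 ligand genes, 1 was higher and 0 lower, with a median of -0.19, and the higher gene was *Pdcd1lg2*, which encodes the PD-1 ligand PD-L2, at 22.3 and 38.4 CPM (0.79, 0.45 to 1.13). Within CD8 T cells 1 of 5 ligand genes was higher and 2 were lower, against 7.24% and 6.04% of all genes, with a median of -0.52. The *Pdcd1lg2* ratio was 0.67 (0.25 to 1.10) there and 0.04 (-0.29 to 0.36) in T cells of the CD45 sort.

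Of 12 transcription factor genes linked to exhaustion, 2 were higher and 0 lower, against the same 8.19% and 5%, with a median of 0.07 near the 0.05 of all genes. *Maf* was at 77.1 and 144 CPM (0.90, 0.73 to 1.08) and *Prdm1*, which encodes Blimp-1, at 21.2 and 31.9 CPM (0.59, 0.24 to 0.94). Neither passed 1.5-fold within CD8 T cells (0.30 and 0.22) or Tregs (0.37 and 0.29). In CD8 T cells *Nr4a2*, an activation-induced nuclear receptor, was at 154 and 234 CPM (0.61, 0.45 to 0.76) and *Ikzf2*, which encodes Helios, at 286 and 143 CPM (-0.997, -1.14 to -0.85). Of 8 progenitor and naive genes, 0 were higher and 4 lower, against 8.19% and 5%, with a median of -0.68. *Lef1*, a factor of the Wnt pathway, was at 111 and 43.9 CPM (-1.34, -1.55 to -1.13) and *Il7r*, the interleukin-7 receptor, at 366 and 162 CPM (-1.18, -1.29 to -1.07), but *Ccr7*, a lymph node homing receptor, was at 78.5 and 99.6 CPM (0.34, 0.16 to 0.53). In Tregs, *Tnfrsf4* was at 1283 and 1972 CPM (0.62, 0.46 to 0.79) and *Klrg1* at 85.3 and 168 CPM (0.98, 0.36 to 1.66). *Klrg1* reached 100 UMIs in Tregs only through the ZsG-positive library, so nothing is read from its being named there. In CD8 T cells *Klrg1* was at 20.1 and 11.5 CPM (-0.81, -1.37 to -0.26).

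The genes whose levels were most like each of the 8 were ranked by Pearson correlation of log2(CPM + 10) over 18 groups, the classes with at least 30 cells in each library of their sort, among 7198 genes. The groups come from 4 libraries and share depth and composition, so the values are a description. *Pdcd1* was most like *Bcl2a1b* (r = 0.94) and *Bcl2a1d* (0.93), closely related survival genes that may share reads, and *Emg1* (0.89). *Havcr2* was most like *E2f3*, *Ccl3* and *Denr* (0.88, 0.88 and 0.87), *Lag3* like *Uqcr10*, *Btf3* and *Tma16* (0.93, 0.90 and 0.89) and *Tox* like *Dnajc2*, *Rpa2* and *Sms* (0.90, 0.89 and 0.88). *Ctla4* was most like *Ccdc69*, *Batf* and *Tnfrsf4* (0.93, 0.93 and 0.92) and *Cd160* like *Xcl1*, *Crtam* and *Nop10* (0.94, 0.90 and 0.86). Among the 3 genes most like *Entpd1* were *Vamp8* and *Lgals1* (0.86 and 0.86). *Tigit* had too few UMIs for this ranking.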

How the data were processed

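Single-cell 3′ RNA-seq libraries (10x Genomics) of the 4 sorted groups were used. The authors aligned and counted the reads with Cell Ranger (6.1.2 in the submitters' processing notes and the header of the T cell matrix, 7.0.0 in the header of the CD45 matrix) on mm10 and deposited UMI counts per gene and cell as 1 combined matrix per sort. The sources used here do not give whether depth was evened between the combined libraries. Libraries were told apart by the barcode suffix. In the T cell sort the labels give both orders, and the library with 2396 barcodes was taken as ZsG-positive. The members and lists were chosen with earlier results of these data known.

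From these counts, cells with 1000 to 6000 genes and under 10% mitochondrial UMIs (CD45 sort), or 50 to 6000 genes and under 15% (T cell sort), were kept, after the limits in the study's methods. Classes were set by the UMI rules given in the text, and no doublet caller was run. UMIs were summed per class and library. With 1 library per group no test was made: exact Poisson, Clopper-Pearson and conditional binomial intervals cover counting error only. A gene was counted as higher or lower past 1.5-fold with at least 100 UMIs over both libraries. Fixed-depth shares and co-detection are exact hypergeometric expectations at 2000 UMIs. Besides the 8 genes, the 2 highest and 2 lowest ratios of each list could be named, with the 3 genes most like each of the 8. Some genes that these rules use or name are not reported here. Tools were edgeR 4.0.16 in R 4.3.3 (TMM factors only) and Python 3.11.15 with pandas 2.3.3, scipy 1.17.1, matplotlib 3.10.9 and numpy 2.4.6. On simulated counts for all T cells of the T cell sort (8632 genes, 200 changed), the intervals covered the true ratio for 95.9% of genes. These counts were drawn as Poisson totals, which the intervals assume. The simulation therefore checks the calculation only and cannot show the coverage for real cells, which differ in content. Alternatives changed the cell limits, gates, cycling cells, totals, depth and class weights.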

Additional observations from a re-analysis of the deposited data

Results flagged for a closer look

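Several log2 ratios ran in opposite directions in the 2 sorts, with neither interval holding 0. The difference between the sorts was not tested, since each group was 1 library, and the ZsG-positive gates were set differently. For *Pdcd1* the ratio was 0.24 in all T cells of the T cell sort and -0.20 in those of the CD45 sort, and 0.42 and -0.25 in CD8 T cells. For *Cd160* it was 0.65 and -0.45 in all T cells and 0.88 and -0.30 in CD8 T cells. In CD8 T cells it was 1.18 and -0.24 for *Lag3* and 0.34 and -0.37 for *Tox*. The opposition of *Pdcd1*, *Lag3* and *Tox* depended on the cells used. Alternatives for the CD45 sort were run over all its T cells, not within its CD8 T cells. There the ratio of *Pdcd1* was 0.24 without cycling cells and 0.049 at 2000 UMIs per cell. That of *Tox* was 0.050 without the 5% of cells with most UMIs and 0.041 at 2000 UMIs. The *Lag3* ratio there was also above 0 without cycling cells and at 2000 UMIs. In CD8 T cells of this sort the *Lag3* interval ended at -0.0005. Within *Gzmb*-positive CD8 cells of this sort the intervals of *Lag3* (-0.44 to 0.05) and *Cd160* (-0.42 to 0.08) held 0. *Ctla4* (0.77 and 0.61) and *Entpd1* (0.70 and 0.46) were higher in ZsG-positive T cells of both sorts, but not within every class. In T cells in no named class *Ctla4* was higher in both sorts, at 1.39 (1.12 to 1.67) and 1.33 (1.05 to 1.61). The *Ctla4* ratio was -0.03 and -0.05 within Tregs and -0.18 and -0.04 within *Gzmb*-positive CD8 cells, with all intervals holding 0. For *Entpd1* it was 1.44 and -0.29 (-1.54 to 0.81) within Tregs. Within *Gzmb*-positive CD8 cells it was 0.01 (-0.43 to 0.46) and 0.43.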

How the results depend on the processing

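No paired analysis was possible because each group is 1 library. A ratio was counted as moved where it left the counting interval of the reported value. A change of sign was counted only where the reported ratio was past 1.5-fold. Smaller ratios that changed sign were counted by the interval alone. In T cells of the T cell sort 11 of the alternative values moved and 109 did not, and in T cells of the CD45 sort 28 moved and 92 did not. In CD8 T cells of the T cell sort 12 moved and 108 did not. In Tregs 6 were counted as moved, 1 as changed in sign and 88 as neither. In NK/ILC cells 2 were counted as moved, 3 as changed in sign and 93 as neither. The cause was not tested. In T cells of the T cell sort, without cycling cells the log2 ratio was 0.57 for *Pdcd1*, 1.68 for *Lag3* and 0.94 for *Cd160*. Without the 5% of cells with most UMIs it was 0.50 for *Pdcd1*, 1.62 for *Lag3* and 0.88 for *Ctla4*, at 2000 UMIs per cell 1.05 for *Havcr2*, 1.81 for *Lag3* and 0.92 for *Ctla4*, and with classes weighted equally 0.25 for *Ctla4* and 0.88 for *Cd160*. In CD8 T cells the moved values ran from 1.43 to 1.59 for *Lag3*, 1.11 to 1.14 for *Cd160*, 0.61 to 0.75 for *Pdcd1*, 0.29 to 0.48 for *Ctla4* and 0.069 to 0.84 for *Havcr2*, whose lowest value came with classes weighted equally. In Tregs *Lag3* was at 2.35 at 2000 UMIs, and the ratio of *Tigit* was 0.36 at 2000 UMIs, against -1.45. In T cells of the CD45 sort, without the macrophage gene limit the ratio was -0.92 for *Pdcd1*, -0.42 for *Havcr2*, -0.96 for *Lag3*, 0.028 for *Ctla4*, -1.24 for *Cd160*, 1.13 for *Entpd1* and -0.83 for *Tox*. With a limit of 0.1% it was 0.73 for *Ctla4*, and with 0.5% 0.48 for *Ctla4* and -0.69 for *Cd160*. Without cycling cells it was 0.24 for *Pdcd1*, 0.76 for *Havcr2*, 0.31 for *Lag3*, 0.20 for *Ctla4* and 1.15 for *Entpd1*, and without the 5% of cells with most UMIs 0.49 for *Havcr2* and 0.050 for *Tox*. At 2000 UMIs it was 0.049 for *Pdcd1*, 0.62 for *Havcr2*, 0.26 for *Lag3*, 0.74 for *Ctla4*, 1.001 for *Entpd1* and 0.041 for *Tox*, and with classes weighted equally -0.37 for *Pdcd1*, -0.55 for *Lag3*, 0.40 for *Ctla4*, -0.85 for *Cd160* and -0.20 for *Entpd1*. In NK/ILC cells *Pdcd1* was at -0.50 without cycling cells, against 1.58. *Lag3* was at -0.0089, *Cd160* at -1.01 and *Entpd1* at 2.08 without the limit, and *Lag3* at -0.10 at 2000 UMIs.

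With a minimum of 20 UMIs in place of 100, genes past 1.5-fold upward and downward in the T cell sort numbered 1234 and 761 (at 100, 593 and 362) in all T cells, 1044 and 863 (at 100, 440 and 367) in CD8 T cells and 962 and 719 (at 100, 123 and 98) in Tregs. In the CD45 sort they numbered 1082 and 1153 (at 100, 486 and 521) in T cells and 1378 and 1935 (at 100, 667 and 1012) in NK/ILC cells. Co-detection ratios were recomputed at 1000 UMIs and at full depth, for pairs expected in enough cells. None of these 100 alternative values left the interval of its ratio. Of 48 shares, 34 moved at 1000 UMIs, where each cell shows fewer genes. The added alternatives, without *Siglech*-positive cells or without T cells with NK gene UMIs, moved no ratio out of its interval.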
